A study of Homo sapiens with 6 samples.

Results

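BG4 ChIP-seq peaks that were called both in untreated U2OS cells and in U2OS cells treated with 1,6-hexanediol, and that lay at the start or end of a single protein-coding gene, are described here. A peak of the untreated condition (Ctrl) was a member if it shared at least 1 bp with a peak of the hexanediol condition (HD) and touched the window of 1 kb either side of the start or end of exactly 1 protein-coding gene on chromosomes 1 to 22 and X. The rule gave 656 of 3376 Ctrl peaks, with 656 partner peaks of 2172 HD peaks, at 654 of 19817 protein-coding genes (3.3%). Of all Ctrl peaks 38.5% had an HD partner, and of the 1421 Ctrl peaks at 1 coding gene 46.2% did. The members were therefore chosen by measured values: each had to pass the peak caller in both lists.

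U2OS is a human osteosarcoma cell line. Cells were untreated or exposed to 1,6-hexanediol, an alcohol that weakens hydrophobic contacts and dissolves many biomolecular condensates; the sources used here give neither dose nor duration. Chromatin was fixed with formaldehyde, sonicated and precipitated with BG4, an antibody fragment that binds DNA G-quadruplexes. The labels give 2 ChIP libraries and 1 input library per condition, but the files hold 1 peak list per condition. Differences between conditions therefore have no replicate error and no test. Peak names in the HD list all carry a replicate number, 1, so that list may rest on 1 ChIP library.

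A G-quadruplex (G4) is a fold of guanine-rich DNA in which stacked planar groups of guanines, drawn from separate runs of G, are held together by Hoogsteen hydrogen bonds. In human chromatin BG4 signal is known to gather at open, GC-rich promoters, just upstream of where transcription starts. Such promoters often also carry GC boxes, bound by SP/KLF factors, and CCAAT boxes, bound by NF-Y.

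The promoters below show the sequence under members with a high ratio of Ctrl fragments to input (CNOT11, CTNNBIP1, CBX7 and HDAC1) and under the member with the highest HD to Ctrl ratio (IBA57). Each is the 250 bases upstream of a RefSeq start site, 5′ to 3′ on the gene's strand. Capitals mark the G4 motif, 4 runs of GGG separated by 1 to 7 bases of any kind, searched on both strands; on the opposite strand it reads as runs of CCC. Matches were taken one after another along each strand without overlap, so further matches that overlap a marked one are neither in capitals nor counted. In build GRCh38.p14, CNOT11 is chr2:101252636-101252885 (plus strand), CTNNBIP1 chr1:9910270-9910519 (minus), CBX7 chr22:39152681-39152930 (minus), HDAC1 chr1:32291833-32292082 (plus) and IBA57 chr1:228165554-228165803 (plus).
CNOT11: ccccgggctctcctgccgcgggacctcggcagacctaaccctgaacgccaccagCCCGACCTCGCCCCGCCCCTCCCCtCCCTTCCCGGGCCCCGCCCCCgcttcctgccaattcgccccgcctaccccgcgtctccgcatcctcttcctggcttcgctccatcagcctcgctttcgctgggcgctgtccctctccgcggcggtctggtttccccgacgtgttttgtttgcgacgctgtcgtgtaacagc
CTNNBIP1: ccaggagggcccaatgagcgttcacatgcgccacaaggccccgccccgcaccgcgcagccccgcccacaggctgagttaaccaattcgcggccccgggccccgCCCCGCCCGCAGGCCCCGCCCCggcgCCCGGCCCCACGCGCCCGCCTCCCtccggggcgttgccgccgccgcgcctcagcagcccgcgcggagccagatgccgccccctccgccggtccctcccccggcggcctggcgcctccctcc
CBX7: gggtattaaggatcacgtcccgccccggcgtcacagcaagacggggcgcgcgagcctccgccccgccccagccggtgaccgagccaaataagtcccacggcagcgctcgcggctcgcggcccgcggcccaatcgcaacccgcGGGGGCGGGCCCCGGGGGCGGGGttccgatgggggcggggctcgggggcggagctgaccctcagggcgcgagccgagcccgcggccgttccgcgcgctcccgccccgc
HDAC1: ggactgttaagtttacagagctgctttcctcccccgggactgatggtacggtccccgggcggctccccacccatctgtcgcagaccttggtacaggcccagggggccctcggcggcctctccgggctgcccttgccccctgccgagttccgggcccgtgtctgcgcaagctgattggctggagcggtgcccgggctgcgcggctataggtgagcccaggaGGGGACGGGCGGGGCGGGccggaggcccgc
IBA57: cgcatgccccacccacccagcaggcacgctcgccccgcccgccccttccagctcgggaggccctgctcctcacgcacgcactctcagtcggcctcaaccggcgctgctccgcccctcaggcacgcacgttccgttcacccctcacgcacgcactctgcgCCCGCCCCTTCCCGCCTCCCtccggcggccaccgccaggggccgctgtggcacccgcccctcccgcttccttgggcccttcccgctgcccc

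CNOT11 and CTNNBIP1 each hold 2 motifs, all on the template strand. CBX7 and HDAC1 hold 1 each on the coding strand, and IBA57 holds 1 on the template strand. The motif of CBX7 lies at bases 143 to 165 of its line, and the Ctrl summit at base 163, inside it. The HDAC1 motif lies at bases 221 to 238, downstream of both summits, at bases 169 and 177.

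A second set shows promoters of members with several CCAAT boxes, among them the members with the lowest HD to Ctrl ratios, DCAF7 and DGCR8; here capitals mark CCAAT or its reverse complement ATTGG. DCAF7 is chr17:63550227-63550476 (plus), DGCR8 chr22:20079991-20080240 (plus) and CEP131 chr17:81222966-81223215 (minus).
DCAF7: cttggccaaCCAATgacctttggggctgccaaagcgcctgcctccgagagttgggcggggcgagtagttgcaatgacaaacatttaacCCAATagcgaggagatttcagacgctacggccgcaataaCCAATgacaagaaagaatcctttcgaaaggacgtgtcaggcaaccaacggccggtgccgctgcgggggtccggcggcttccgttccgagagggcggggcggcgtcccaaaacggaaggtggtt
DGCR8: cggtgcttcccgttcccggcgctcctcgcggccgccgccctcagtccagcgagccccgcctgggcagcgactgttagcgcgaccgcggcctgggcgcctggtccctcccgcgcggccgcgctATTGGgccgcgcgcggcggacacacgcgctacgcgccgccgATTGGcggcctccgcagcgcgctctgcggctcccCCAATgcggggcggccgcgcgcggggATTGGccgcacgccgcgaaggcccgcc
CEP131: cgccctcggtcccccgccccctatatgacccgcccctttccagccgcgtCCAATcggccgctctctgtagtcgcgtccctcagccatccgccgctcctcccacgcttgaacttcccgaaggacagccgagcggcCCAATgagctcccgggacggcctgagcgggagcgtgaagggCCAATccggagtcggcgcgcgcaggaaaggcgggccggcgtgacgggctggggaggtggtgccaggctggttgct

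DCAF7 and CEP131 have 3 such boxes and DGCR8 has 4. Members not shown can have as many or more, such as TOMM40 with 5 and MTMR4 and STIP1 with 4 each. Neither DCAF7 nor DGCR8 holds the G4 motif in the window searched, and CEP131 holds 1. Other members with low ratios differ: SRSF5 and SUSD6 have 0 boxes, and CNOT11 and SPAST have 1 each. CNOT11 holds 2 G4 motifs and SUSD6 holds 1. A relation between these motifs and the ratio was not tested.

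Fragment numbers over each summit were recovered from the caller's fold and p-value. A member had a median of 29 ChIP fragments in Ctrl (25th to 75th percentile 25 to 36, lowest 16, highest 133) and 39 in HD (33 to 45, lowest 22, highest 161). The HD list was deeper, with 27539 ChIP fragments per Mb of the caller's genome size against 19603 in Ctrl, a ratio of 1.40. Both depths were computed from the caller's genome-wide expectation and a fitted fragment length. Over the caller's expectation from input, in the same fragment units, the median enrichment was 5.57 in Ctrl (4.58 to 6.62) and 5.12 in HD (4.35 to 5.94). Ctrl peaks at 1 coding gene without a partner had a median of 25 fragments and 5.14-fold enrichment, and HD peaks without a partner 32 and 4.71; since a partner is more easily called at a strong peak, the rule itself orders these values.

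The paired peaks covered nearly the same ground. Their overlap had a median of 241 bp, which was 85.7% of the Ctrl peak and 89.5% of the HD peak, and 599 pairs (91.3%) shared at least 50% of both peaks. Ctrl members had a median width of 303 bp, and their partners one of 285 bp. The summits lay a median of 43 bp apart (19 to 82), within 50 bp in 371 pairs (56.6%) and within 100 bp in 530 (80.8%). The widest gap was 574 bp, at USP5, a deubiquitinating enzyme. No member had more than 1 HD partner.

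Few members lay near the limits of the rule. The shortest overlaps were 30 bp at ZNF143, 62 bp at RNF208 and 106 bp at ANKRD36, while the nearest Ctrl peaks without a partner lay 190 bp (PLK3), 198 bp (SRCAP) and 205 bp (CARD19) from an HD peak. PLK3 and CARD19 each also have a separate Ctrl peak that is a member. At the edge of the gene window, peaks 992 bp (MEX3B), 979 bp (SESN3) and 968 bp (FAM72C) from a gene end were inside, and peaks 1008 bp (ATL2), 1040 bp (TXN2) and 1054 bp (CELSR3) away were outside.

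Almost all members with a known strand sat at the start of their gene. The reference gave a strand and start site for 537 members. The rest, among them all 39 on chromosome 8, are left out of the position and promoter motif results. The Ctrl summit was nearer the gene's start than its far end in 527 of the 537 (98.1%, exact 95% binomial interval 96.6 to 99.1). The peak covered the start site in 315 (58.7%). Of the 515 summits within 1 kb of a start site, 472 (91.7%, 88.9 to 93.9) were upstream of it, with a median of -131 bp (-195 to -72).

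Members' summits had a median farther upstream than those of peaks found in a single list. The upstream share was 84.4% (81.2 to 87.1) for the Ctrl peaks without a partner and 83.4% (78.7 to 87.4) for the HD peaks without one, with medians of -94.5 and -100 bp. Within 100 bp of a start site lay 33.0% (29.0 to 37.1) of members, 46.2% (42.3 to 50.1) of Ctrl-only and 41.1% (35.6 to 46.7) of HD-only peaks. Members were also wider (303 bp against 245 bp and 247 bp), and the part of width in the position was not tested. These intervals cover counting error over peaks and are no test between conditions.

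**Figure D1:**
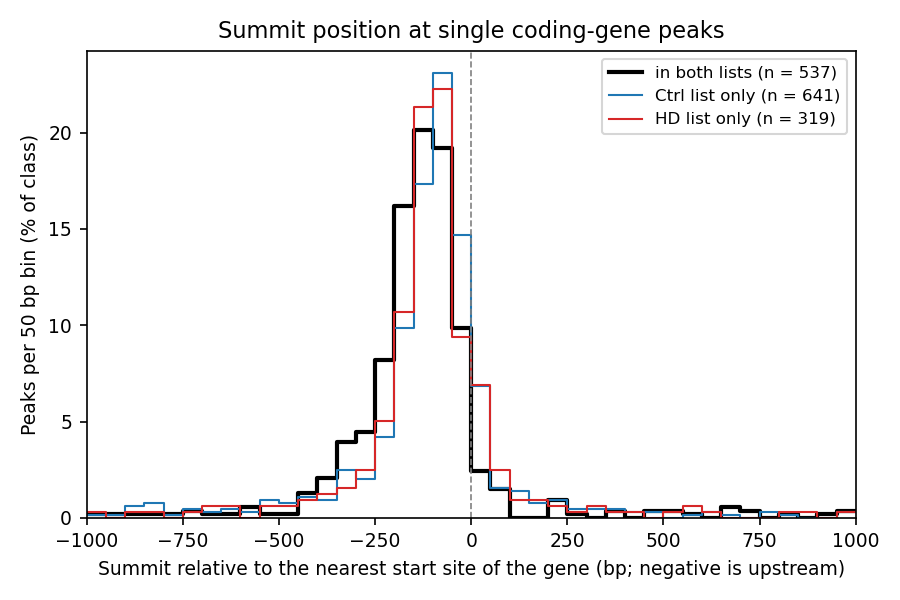
Position of peak summits relative to the nearest start site of the gene (x axis, bp, negative is upstream) as the share of each class per 50 bp bin (y axis, %), for members, Ctrl-only and HD-only peaks at 1 coding gene. The members' distribution is shifted upstream, with a median of -131 bp against -94.5 and -100 bp.

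The other 10 members with a known strand sat nearer the far end of the gene. They were CLEC11A (38 Ctrl and 34 HD fragments), SDR42E2 (33 and 42), LOC124903573 (35 and 39), COPZ2 (32 and 44), TAF11L7 (132 and 161), NCF1 (25 and 33), SFN (23 and 30), ZNF705A (25 and 29), ITGA10 (23 and 38) and GRAPL (31 and 37), all listed after their values were seen. CLEC11A encodes a secreted growth factor of bone and blood precursor cells, SFN the 14-3-3 sigma protein and ITGA10 a collagen-binding integrin chain. NCF1, GRAPL, ZNF705A and TAF11L7 have near-identical copies, so their reads may come from more than 1 place. Of the 10, 1 was within 1 kb of a start site of its gene.

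A noncoding gene also began or ended within the window of 213 members (32.5%, 28.9 to 36.2), against 28.1% (24.9 to 31.4) of Ctrl-only peaks at 1 coding gene. In 64 members (9.76%) it was annotated as a divergent transcript, as at KPNB1, RSPH1 and IBA57, and in 42 (6.40%) as an antisense gene. ChIP peaks carry no strand and cannot be assigned to either transcript.

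G4 motifs were more frequent in members' promoters than in all promoters, and near the share of promoters of like GC content. The motif occurred in the promoter of 238 of 537 members (44.3%, 40.1 to 48.6), against 6707 of 22131 promoters of protein-coding genes of the same 300 bases, from 250 before to 50 after the start (30.3%). At least 2 motifs occurred in 13.6% and 9.76%. The members' promoters had a median GC content of 69.7%, against 62.3% for all. Among promoters of 65 to under 70% GC the motif was in 40.4% of members (32.4 to 48.8) and 38.1% of all. At 70 to under 75% it was in 55% (46.9 to 62.9) and 53.8%, and at 75% or more in 65.3% (55.2 to 74.5) and 70.6%. The Ctrl-only share was 38.5% (34.7 to 42.4) and the HD-only share 39.5% (34.1 to 45.1), at median GC contents of 68.3% and 67.3%. Motifs lay on the coding strand in 58.4% and on the template strand in 48.7% of members' promoters that held one, some having both.

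The summit fell inside a motif in a minority of the members examined, and no share for randomly placed summits stands beside the values. Of 179 members with a motif and a summit within 250 bp of a start site, the Ctrl summit was inside a motif in 25 (14.0%) and the HD summit in 30 (16.8%), and within 50 bp of one in 50.3% and 53.1%. Members with the motif had a median Ctrl enrichment of 5.81 against 5.44 without it. In HD the values were 5.17 and 5.10. In 5 equal classes of members ordered by Ctrl enrichment, from low to high, the motif's share was 37.3%, 39.6%, 46.0%, 43.4% and 54.6%, and median GC content moved with it, from 67.5% to 72.0%. The part of GC content in that order was not tested.

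CCAAT boxes were more frequent in members' promoters than in all promoters, also at like GC content. The letters CCAAT on either strand were in 290 members' promoters (54.0%, 49.7 to 58.3), against 34.6% of all coding promoters, 46.8% (42.9 to 50.7) of Ctrl-only and 47.6% (42.1 to 53.3) of HD-only promoters. The share was above that of all promoters in each GC class: 68% against 41.1% below 60% GC, 65.8% against 33.3% at 65 to under 70%, and 37.6% against 19.5% at 75% or more. At least 2 CCAAT boxes were in 31.5% of members (27.6 to 35.6), 20.3% of Ctrl-only (17.2 to 23.6), 21.6% of HD-only (17.2 to 26.6) and 11.4% of all promoters. Their median position was -112 bp from the start. The Ctrl summit lay a median of 33 bp from the nearest one in the 231 members with both in the window. No reference distance stands beside this value, and some promoters held several boxes. At DCAF7 the Ctrl summit is base 84 of the line above, and the second box begins at base 89. The HD summit there is base 201, past the last box, which begins at base 128. The promoters were not matched for transcription or open chromatin, which no file here measures.

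GC boxes were in most members' promoters and TATA boxes in few. The letters GGGCGG, which can overlap the G4 motif, were in 87.7% of members against 56.3% of all promoters. Below 60% GC the shares were 56% and 23.0%, and at 75% or more 98.0% and 96.9%. TATAAA was in 2.05% (1.03 to 3.64) against 9.46%. Below 60% GC it was in 1 of 50 members (2%, 0.0506 to 10.6) against 18.3%. The ETS-type letters CCGGAAG were in 14.7% of members (11.8 to 18.0), 19.2% (16.2 to 22.5) of Ctrl-only and 20.4% (16.1 to 25.2) of HD-only promoters, against 12.8% of all. TGACGTCA, the cyclic AMP response element, was in 3.91% against 2.26%, AAGATGGC, a YY1 motif, in 5.40% against 3.54%, and TGACTCA, the AP-1 motif, in 1.30% against 4.01%. All were searched on both strands. A match describes the letters of the reference and is not evidence that a factor was bound.

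**Figure D2:**
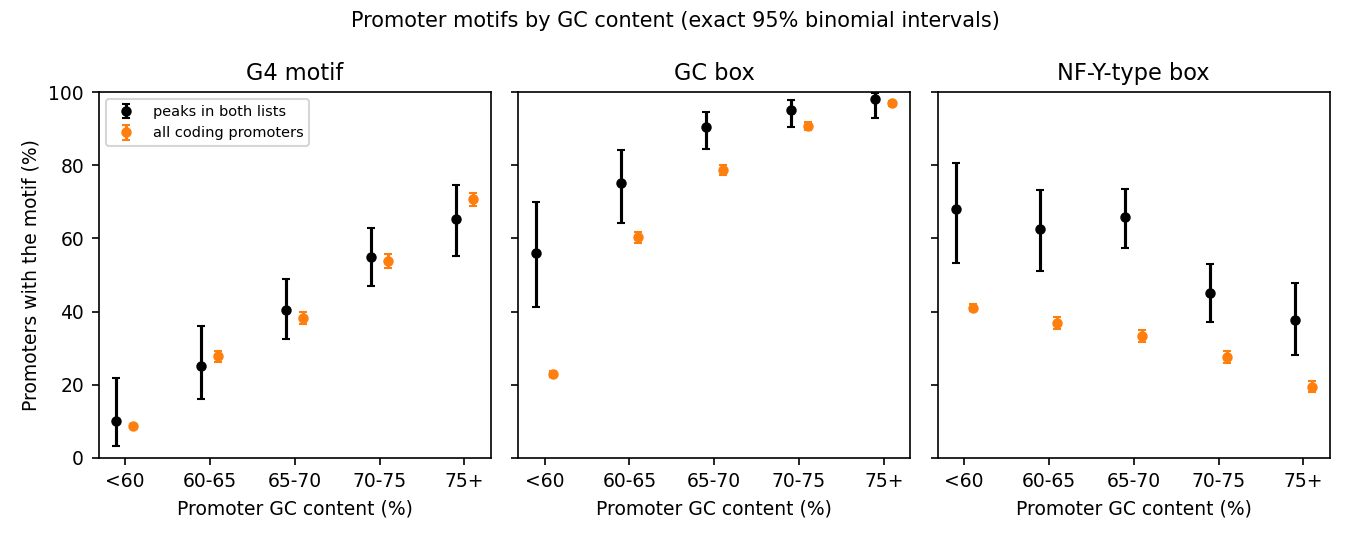
Share of promoters that hold the G4 motif, the GC box and the CCAAT (NF-Y-type) box (y axis, %) by promoter GC content class (x axis, %), for members and all coding promoters, with exact 95% binomial intervals. For the G4 motif members follow all promoters of like GC content (55% against 53.8% at 70 to under 75% GC); for the CCAAT box they lie above in each class.

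HD to Ctrl ratios below are HD over Ctrl fragments divided by the depth ratio of 1.40. Each list's fragments are those over its own summit, so a ratio can compare 2 positions of a locus. In the sequence lines above, the summits of IBA57 are at base 132 in Ctrl and base 34 in HD. Those of DCAF7 are at bases 84 and 201. They come from the lists that chose the members and are given as a description. The median was 0.938 (25th to 75th percentile 0.810 to 1.06), and all shared peaks had 0.943. The ratio was under 1 at 421 members (64.2%), and the same share of all shared peaks is not given here. Past 1.5-fold, 27 members were lower in HD (4.12%, against 4.23% of all shared peaks) and 7 higher (1.07%, against 0.846%), shares near the background. The split was 27 to 7 on this scale. It was 39 to 2 when scaled by the genome-wide expectation and 13 to 11 when scaled by the median of all shared peaks. In fragments, that expectation is the ChIP depth times the fitted fragment length (191 bp in Ctrl, 200 bp in HD), and no separate measure of input. The shares of all shared peaks on these other scales are not given here. Past a difference of 25%, 146 members were lower in HD (22.3%, against 21.3%) and 42 higher (6.40%, against 5.77%). None passed 2-fold in either direction, against 0.308% of all shared peaks lower and 0% higher. The exact 95% interval for counting error was wholly under 1 at 8 members (1.22%, against 2.69% of all shared peaks) and wholly over 1 at 1 (0.152%, against 1.31%). Over 656 members, many interval tests of this kind are made, and those few were picked by their values.

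**Figure D3:**
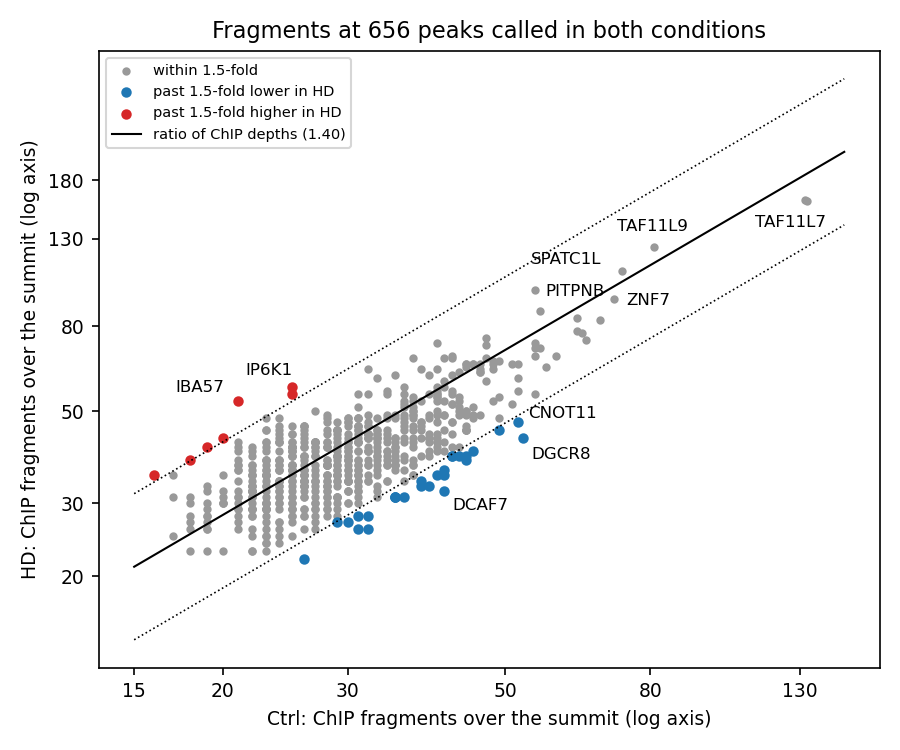
ChIP fragments over the summit in Ctrl (x axis, log scale) and HD (y axis, log scale) for the 656 members, 1 point per member, with lines for the depth ratio of 1.40 and for 1.5-fold either side. Most points lie within the 1.5-fold lines, with 27 below and 7 above.

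By the upper bound of the interval, the 6 lowest ratios were at DGCR8, DCAF7, SRSF5, CNOT11, SUSD6 and SPAST. DCAF7, a WD-repeat scaffold of the kinase DYRK1A, had 41 fragments in Ctrl and 32 in HD (chr17:63550110-63550516), a ratio of 0.556 (0.339 to 0.904). DGCR8, the partner of Drosha in microRNA processing, had 53 and 43 (chr22:20079883-20080216), a ratio of 0.578 (0.377 to 0.880). Both had fewer fragments in the deeper HD list than in Ctrl, as 39 of the 656 members had. That count has no share of all shared peaks beside it, so it cannot be read as a trait particular to the members. CNOT11, a subunit of the CCR4-NOT deadenylase complex, had 52 and 47 (0.643, 0.424 to 0.973). SRSF5, a splicing factor, had 44 and 38 (0.615, 0.388 to 0.971), at a peak 695 bp downstream of its start site. SPAST, which severs microtubules, had 39 and 33 (0.602, 0.367 to 0.983), and SUSD6 had 41 and 35 (0.608, 0.376 to 0.978).

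By the lower bound, the 6 highest were at IBA57, IP6K1, PTPN12, PITPNB, PKNOX1 and CARD19. IBA57, needed for mitochondrial iron-sulfur cluster assembly, had 21 fragments in Ctrl and 53 in HD (chr1:228165571-228165784), a ratio of 1.80 (1.07 to 3.14). Its enrichment over input was 5.08 in Ctrl and 9.32 in HD. PTPN12, a tyrosine phosphatase, had 25 and 55 (1.57, 0.960 to 2.62), at a peak 1109 bp upstream of its start site, and CARD19 had 23 and 48 (1.49, 0.886 to 2.56). IP6K1, an inositol hexakisphosphate kinase, had 25 and 57 (1.62, 0.998 to 2.71), but the input expectation there was 5.39 in Ctrl and 15.4 in HD, so that its enrichment was 4.64 in Ctrl and 3.70 in HD. PKNOX1, a homeodomain factor, had 32 and 63 (1.40, 0.902 to 2.22), and PITPNB, a phosphatidylinositol transfer protein, 55 and 98 (1.27, 0.903 to 1.80). Only the interval of IBA57 among these 6 excluded 1.

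The ratio moved with the number of fragments that chose the peak. In 5 equal classes ordered by Ctrl fragments, from fewest to most, its median was 1.06, 0.997, 0.908, 0.873 and 0.856. Ordered by HD fragments the direction turned, from 0.822 in the lowest class to 0.979 in the highest. Ctrl fragments are the ratio's denominator and HD fragments its numerator, so neither order is a result about the members. Over members, log2 fragments of both lists had a Pearson correlation of 0.754 and a Spearman correlation of 0.670 (n = 656; copy number and mappability are shared by both lists).

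The highest enrichments over input in Ctrl were at RELL1, CTNNBIP1, RSPH1, CNOT11, CAP1, CBX7, RBM6 and KPNB1. RELL1, a member of the RELT family of membrane proteins, had 55 fragments in Ctrl and 68 in HD, and an enrichment of 12.1 and 8.99 (chr4:37686350-37686918). CTNNBIP1, which keeps beta-catenin from TCF factors, had 41 and 42 fragments and an enrichment of 11.0 and 7.62 (chr1:9910229-9910747). RSPH1, a radial spoke protein of motile cilia, had an enrichment of 10.8 and 4.23 with 49 and 45 fragments, and its input expectation was 4.53 in Ctrl and 10.6 in HD. The enrichment was likewise 9.90 and 3.57 at CAP1, an actin regulator, and 9.72 and 2.75 at RBM6, an RNA-binding splicing regulator, where the input expectation was 4.53 in Ctrl and 18.2 in HD. At CBX7, a Polycomb chromodomain protein, it was 9.87 and 4.58, and at KPNB1, importin beta, 9.64 and 7.24. All 8 were lower in HD, and they had been picked for a high Ctrl value. The enrichment also carries the input of each list. Where local input was low, as at CTNNBIP1 in both lists, it is taken over the caller's genome-wide expectation instead. That expectation was 3.74 fragments in Ctrl and 5.51 in HD. By enrichment in place of fragments, 99 members were past 1.5-fold lower in HD (15.1%, against 13.6% of all shared peaks) and 31 higher (4.73%, against 4.46%).

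High fragment numbers could lie over high input. TAF11L7, a member of a repeated gene family, had 132 Ctrl and 161 HD fragments over input expectations of 63.7 and 89.6. TAF11L9, of the same family, had the lowest enrichment of all members, 1.71 in Ctrl and 1.61 in HD. The highest HD enrichment was 11.1 at SPATC1L (73 Ctrl and 109 HD fragments). FAM72C, ANKRD36 and FAM86B1 also have near-identical copies, and their positions are uncertain.

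Gene groups were marked at unequal rates, given here as counts beside the 3.3% of all coding genes. The groups were chosen with earlier results of these data known. They were not matched to all coding genes for promoter GC content, transcription or open chromatin. Peaks that touch the ends of more than 1 coding gene are outside the rule, so genes with close coding neighbours can go uncounted. How many such genes each group holds was not examined. Phosphatases and their subunits had members at 22 of 168 genes (13.1%, 8.39 to 19.2), and 9 more of the group were marked in Ctrl only and 4 in HD only. Of all coding genes, 3.75% were marked in Ctrl only and 1.84% in HD only. Among the 22 were PPM1D, a phosphatase that switches off p53 signalling (63 Ctrl and 84 HD fragments), MTMR4, a phosphoinositide phosphatase (59 and 68), and STYX, a catalytically inactive relative (56 and 87). Their ratios ran from 0.728 to 1.57 with a median of 0.949. Nucleoporins and nuclear transport factors were marked at 6 of 60 genes (10%, 3.76 to 20.5), with KPNB1 (52 and 56), the exportin XPO1 (29 and 38) and CSE1L, which recycles importin alpha (26 and 34). Members marked 14 of 161 chromatin modifiers (8.70%, 4.84 to 14.2), including CBX7 (40 and 35), the SWI/SNF subunit SMARCD2 (47 and 59) and the deacetylase HDAC1 (35 and 42), with a median ratio of 0.923 and a range of 0.578 to 1.24. Proteasome and ubiquitin genes had 17 of 235 (7.23%, 4.27 to 11.3), with the deubiquitinase USP42 (46 and 65), the F-box protein FBXO34 (39 and 49) and the proteasome ATPase PSMC3 (43 and 53).

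Nearer the background were RAB and vesicle genes at 19 of 306 (6.21%, 3.78 to 9.53), with RAB40B (42 and 44), TBC1D23 (33 and 37) and RAB8A (30 and 32). The 19 include COPS7A, a COP9 signalosome subunit counted by its symbol. Replication and cell cycle genes had members at 7 of 119 (5.88%, 2.40 to 11.7), with the polymerase subunit POLD2 (44 and 64), the kinase CDK13 (42 and 41) and the helicase subunit MCM5 (49 and 66). Signalling kinases had 8 of 132 (6.06%), with MAP3K9 (65 and 74) and MAP3K2 (31 and 35); 1 of the 8, counted there by its symbol, is not a kinase. Kinesin and centrosome genes had 8 of 136 (5.88%), with CEP131 (35 and 43), CEP43 (29 and 45) and KIF22 (28 and 31). RNA modification and ribosome biogenesis had 6 of 107 (5.61%), with TRMT2A (41 and 57), the Treacher Collins gene TCOF1 (37 and 37) and UTP6 (25 and 41). Heat shock and chaperone genes had 5 of 90 (5.56%), with STIP1 (24 and 26), CCT8 (29 and 45) and HSPA8 (25 and 29). Splicing factors and hnRNPs had 7 of 145 (4.83%), with RBM6 (44 and 50), SRSF5 and LSM14B (37 and 43), the last a cytoplasmic mRNA-binding protein counted by its symbol. Numbered zinc fingers had 24 of 579 (4.15%, 2.67 to 6.10), with ZNF7 (71 and 93), ZNF706 (44 and 49) and ZNF697 (33 and 44).

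Mitochondrial functions were marked in part. Respiratory chain subunits had 5 of 107 (4.67%), with NDUFV2 of complex I (46 and 49), CYC1 of complex III (48 and 66) and ATP5PD of the ATP synthase (28 and 47). Import, protease and dynamics genes had 3 of 48 (6.25%): AFG3L2, an inner-membrane protease (68 and 83), TOMM40, the pore of the outer-membrane translocase (35 and 48), and TOMM5 (27 and 42). Mitochondrial ribosomal proteins had 1 of 77 (1.30%, 0.0329 to 7.02), MRPS9 (32 and 44). Cytosolic ribosomal proteins had none of 86 (0%, up to 4.20%), and 5 of them had a peak in Ctrl only and 3 in HD only, beside 3.75% and 1.84% of all coding genes. Translation factors and tRNA synthetases had 5 of 114 (4.39%), with EIF2B2 (31 and 35), PARS2 (33 and 40) and EEF2KMT (46 and 63), the last a methyltransferase of elongation factor 2 counted by its symbol.

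The RNA polymerase, Mediator and TFIID group had 2 of 132 (1.52%, 0.184 to 5.37), MED13 (44 and 65) and CDK13. The latter is a kinase that is also counted among the replication and cell cycle genes. In this group 12 genes had a peak in Ctrl only and 3 in HD only, beside 3.75% and 1.84% of all coding genes. DNA repair genes had 1 of 86 (1.16%, 0.0294 to 6.31), the nuclease ERCC4 (32 and 44). Solute carriers had 8 of 396 (2.02%, 0.876 to 3.94), with SLC22A4 (37 and 38), SLC20A1 (32 and 55) and SLC35E4 (26 and 32). DEAD and DEAH box helicases had 2 of 57 (3.51%), DHX30 (29 and 35) and DHX35 (23 and 38). Condensate and nuclear body proteins had 2 of 32 (6.25%, 0.766 to 20.8): TCOF1, with a ratio of 0.712 (37 and 37 fragments), and nucleolin, NCL, with 1.07 (20 and 30).

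**Figure D4:**
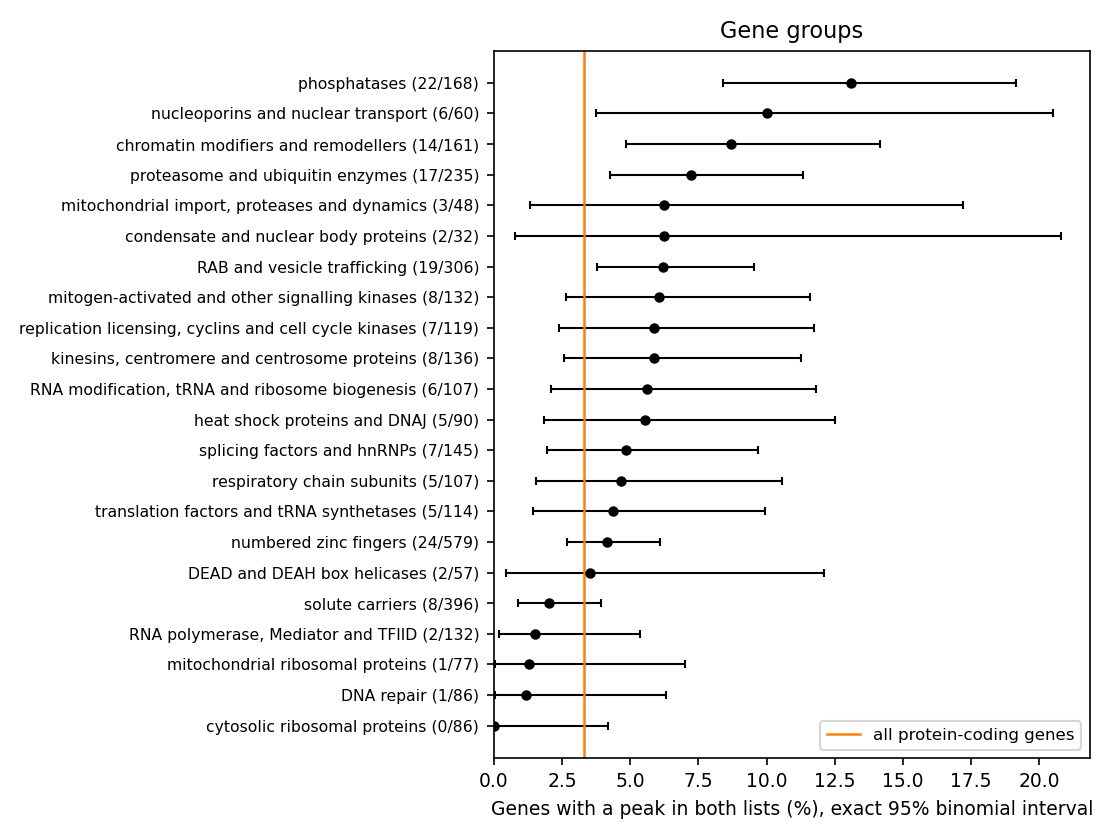
Share of each gene group's genes that carry a member peak (x axis, %) with exact 95% binomial intervals; the counts stand beside each group's name and the line marks the 3.3% of all protein-coding genes. Phosphatases (13.1%) have the highest share and cytosolic ribosomal proteins (0%) the lowest. Groups were not matched for promoter GC content or for closeness to other coding genes.

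Chromosomes differed in how many of their coding genes carried a member, and the input moved with it. The share was 7.74% on chromosome 22, 6.72% on 21 and on 18, and 6.14% on 14, against 0.672% on chromosome 6, 0.354% on X and 0.298% on 13, where 1 gene was marked. The median Ctrl input expectation at members was 7.61 fragments on chromosome 14, 7.55 on 18, 6.20 on 21 and 5.48 on 22, against 4.81 on 6, 4.55 on 13 and 3.74 on X, the last being the caller's genome-wide floor. The order was not strict: chromosome 8, at 6.58, had a share of 5.38%, below that of chromosome 22. Over 23 chromosomes the share and the expectation had a Spearman correlation of 0.806 (Pearson 0.759); without chromosomes 6, 13 and X, the Spearman value was 0.795. Both come from the same peaks, and U2OS has many copy number changes, which no file here gives. The part of copy number in the number of members was not tested. Chromosome 14 also had the lowest median ratio, 0.810 over 37 members, and SRSF5 and SUSD6, named above, lie on it. Its median of 41 Ctrl fragments, the ratio's denominator, was the highest of all chromosomes. The part of the chromosome in the ratio was not tested.

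**Figure D5:**
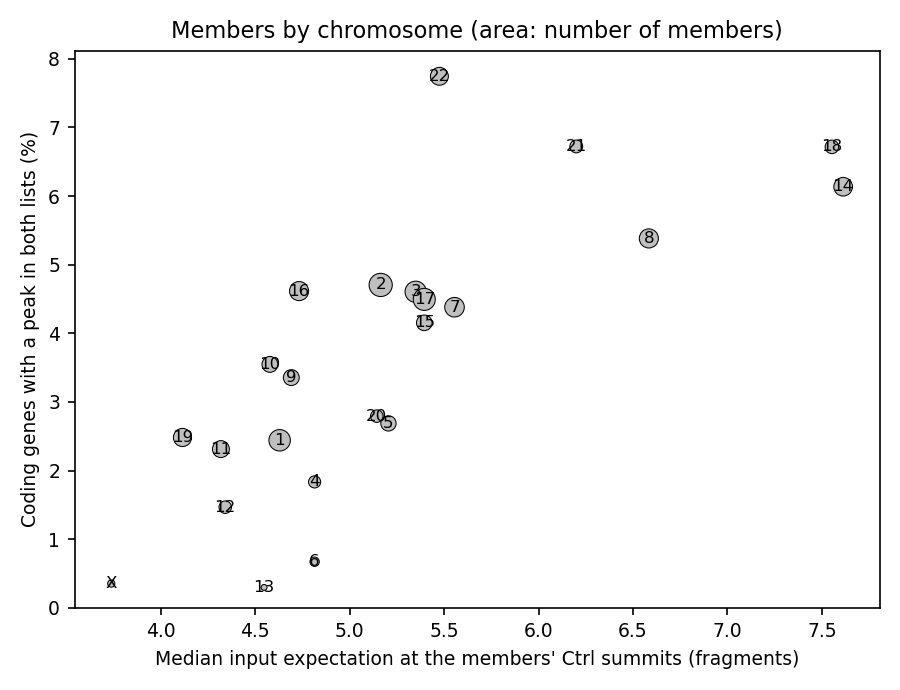
Share of each chromosome's protein-coding genes with a member peak (y axis, %) against the median input expectation at those peaks in Ctrl (x axis, fragments), 1 point per chromosome with its area set by the number of members. Chromosomes 14, 18, 21 and 22 lie high, and 6, 13 and X lie below 1%.

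CHRAC1, a histone-fold subunit of a chromatin remodeller, and PHF12, a subunit of a Sin3 corepressor complex, each carried 2 members. The CHRAC1 peaks had 42 and 29 fragments in Ctrl and 52 and 36 in HD, and the PHF12 peaks 30 and 24 in Ctrl and 41 and 38 in HD. The ratios were 0.881 and 0.884 at CHRAC1 and 0.973 and 1.13 at PHF12. Peaks at the same gene share a locus and are not independent.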

How the data were processed

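For each condition the authors deposited 1 peak list, named in the labels of both its ChIP libraries; input files and values per library were not analysed here. Tools in the submitters' processing notes are MACS2 2.2.7.1, Bowtie2 2.5.0, SAMtools and FastQC 0.11.9, with the build hg38. Their settings are not stated in those notes. Each peak has a fold enrichment (a ratio) over local background, -log10 p and -log10 q, and a score, all as deposited by the authors, who kept peaks at a q-value of 0.05, as the lowest -log10 q values show (1.31 and 1.30).

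Fragment numbers at the summits and the expectation from input were computed from the deposited fold and -log10 p. MACS2 writes the fold as pileup plus 1 over expectation plus 1, and p as a Poisson tail of the pileup, which is a whole number of fragments times a scale (0.927 for Ctrl, 0.715 for HD). A whole number matched within 0.01 of -log10 p for 3498 of 3507 Ctrl and 2264 of 2269 HD peaks; 4.88% and 4.05% had more than 1 match, of which the closest was taken. The genome-wide expectation was 3.74 and 5.51 fragments. The recovery was tested on simulated data.

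Gene ends, strands and promoters came from RefSeq tables of GRCh38.p14, and 537 of 656 members matched a promoter entry. Shares have exact 95% binomial intervals, fragment ratios exact 95% conditional binomial intervals, and both cover counting error only; the fragments carry no molecular identifiers. No p-value was computed between conditions, since each has 1 list. Python 3.11.15, pandas 2.3.3 and scipy 1.17.1 were used. Genes are named as the 8 with the highest Ctrl enrichment, the 6 with the highest lower bound and the 6 with the lowest upper bound of the ratio, up to 3 per group by Ctrl -log10 q, those at the rule's limits and those with more than 1 member; some that the rule names are not reported here. Other named genes, the motifs other than the G4 motif and the GC classes were chosen after values were seen. Members, gene groups and tests were chosen with earlier results of these data known. Alternatives for the overlap, window, q-value, list length, motif, fold and scaling were tried.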

Additional observations from a re-analysis of the deposited data

How the results depend on the processing

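The number of members was 650 with an overlap of at least 50% of the shorter peak, 641 with a window of 500 bp, 648 with one of 2 kb, 584 at a -log10 q of at least 3 in both lists and 531 with lists of equal length. The share nearest the gene start was 97.9% to 98.9% under the alternatives run. The G4 motif's share was 64.8% of members with loops of up to 12 bases (45.4% of all promoters) and 43.8% over members whose peak overlaps the promoter. The median ratio was 0.894 scaled by the genome-wide expectation and 0.919 over local input. The members past the fold that were lower in HD numbered 146 when a difference of 25% sufficed, 0 at 2-fold, 13 scaled by the median of all shared peaks and 99 over local input. Those higher in HD numbered 42, 0, 11 and 31 in the same order, and 2 scaled by the genome-wide expectation. The lower and higher fold thresholds and the scalings change these counts by their construction.

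No paired analysis was possible because each condition has 1 peak list, and for the same reason no library could be left out. At a median of 29 and 39 fragments, counting error leaves few single ratios distinct from 1. Relative to the ratio, the intervals are widest where fragments are few.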
